A study of Mus musculus with 2 samples.

Results

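A set of 10 early progenitor genes is described here across mouse bone marrow cells sorted on E-cadherin and cKIT. They are Cd34, Procr, Cd27, Flt3, Meis1, Hlf, Mecom, Erg, Sox4 and Mllt3, 10 of the 31053 genes in the count tables, chosen by symbol as genes of blood stem cells and early progenitors. Each symbol matched 1 gene in both libraries. The study sorted bone marrow cells that carry the adhesion protein E-cadherin on their surface, and split them into E-cadherin+cKIT+ and E-cadherin+cKIT- populations, to see how the first relates to the second. The labels give the strain as FVB. The study calls the mice wild-type in one place and Vav-iCre;mTmG in another, the latter being mice in which Cre from a Vav promoter switches a fluorescent reporter in blood cells, with Cdh1 intact. The labels name no treatment or age, and cells of several mice went into 1 library per population.

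The cKIT+ library kept 6479 cells and 91108781 unique molecular identifiers (UMIs, each one captured RNA molecule), with a median of 13039 per cell. The cKIT- library kept 3662 cells and 22869169 UMIs, with a median of 4416.5, so it was shallower, and 10 cell barcodes occurred in both libraries. Levels are UMIs per 1000000 UMIs of the cells summed (CPM). As 3′ tag counts they are compared between cells, not between genes. Kit, the gene for the sorting marker, had 3382 UMIs (37.1 CPM) in the cKIT+ library against 20 (0.875 CPM), and Cdh1, the gene for E-cadherin, had 5719 (62.8 CPM) against 4424 (193 CPM). Each population has a single library, so no difference was tested and the 95% intervals (exact Poisson for levels, exact binomial for ratios and shares) cover counting error only. Summed counts do not tell fewer expressing cells from less RNA per cell.

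Blood stem cells sit at the top of haematopoiesis and give rise to progenitors that progressively restrict their fate. Stem cells are recognised by a small set of surface proteins and by transcription factors that hold the undifferentiated state, and both are switched off as lineage genes come on. CD34 is a sialomucin of early progenitors. PROCR (EPCR) is an endothelial receptor for protein C that marks mouse stem cells. CD27 is a TNF receptor family member and FLT3 a receptor tyrosine kinase of multipotent and lymphoid progenitors. MEIS1, HLF, MECOM (EVI1), ERG and SOX4 are transcription factors, and MLLT3 (AF9) reads acetylated chromatin and belongs to the elongation machinery. Basophils and mast cells come from progenitors that share GATA2, and several of these genes also act outside stem cells.

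The bases just upstream of 3 of the genes are shown because their RNA was distributed in different ways across the cells, with Cd34 lower and Procr higher in cKIT+ cells rich in the basophil protease Mcpt8, and Meis1 highest in cells with the protease Gzmb. The letters are from RefSeq promoter windows on GRCm38 and stop before the first start that GENCODE annotates in the window, 5′ to 3′ on the gene's own strand. Capitals mark matches on either strand to 3 kinds of motif. The GATA motif was searched as AGATAA and with a final G (AGATAG), and likewise as TGATAA and with a final G (TGATAG). The RUNX motif was searched as TGTGGT and in a second form, TGCGGT, and the ETS motif as AGGAAG and in a second form, CGGAAG.
Cd34, chr1:194938571-194938818, plus strand: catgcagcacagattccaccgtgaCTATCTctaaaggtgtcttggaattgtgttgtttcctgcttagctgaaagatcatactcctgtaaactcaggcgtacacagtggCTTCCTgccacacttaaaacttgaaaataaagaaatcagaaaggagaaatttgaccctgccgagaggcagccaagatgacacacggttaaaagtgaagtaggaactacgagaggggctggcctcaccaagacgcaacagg
Procr, chr2:155750967-155751116, plus strand: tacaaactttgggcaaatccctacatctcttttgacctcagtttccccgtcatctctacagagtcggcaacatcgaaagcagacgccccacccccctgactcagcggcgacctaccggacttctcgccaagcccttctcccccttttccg
Meis1, chr11:19018986-19019219, minus strand: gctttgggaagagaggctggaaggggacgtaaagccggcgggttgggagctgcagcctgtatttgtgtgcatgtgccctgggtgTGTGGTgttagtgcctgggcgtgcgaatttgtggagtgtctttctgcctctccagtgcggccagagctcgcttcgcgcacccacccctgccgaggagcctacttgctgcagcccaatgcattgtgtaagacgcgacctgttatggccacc
The Cd34 window held 1 GATA match and 1 ETS match, the Meis1 window 1 RUNX match, and the Procr window, at 150 bases the shortest, none. In the full 250 bases upstream of the RefSeq start, Procr and Meis1 each also held 1 ETS match. Over the same 250 bases of 32851 RefSeq promoters, 26.5% held a GATA match, 18.6% a RUNX match and 39.2% an ETS match. For the 14 promoters of the 10 genes the numbers were 6, 2 and 6. These matches describe letters in the windows and no binding was measured.

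Most of the 10 genes were higher in the cKIT+ library. Of the 10, 7 were at least 2-fold higher and 0 at least 2-fold lower, where 11.8% of the 11581 genes with at least 100 UMIs were at least 2-fold higher and 9.34% at least 2-fold lower. The median log2 ratio was 1.94 for the 10 genes and 0.02 for all genes compared. Among the surface proteins, Cd34 had 8208 UMIs (90.1 CPM) in cKIT+ cells against 255 (11.2 CPM) in cKIT- cells, a ratio of 8.08 (7.13 to 9.19). It was seen in 52.5% of cKIT+ and 5.98% of cKIT- cells, or in 15.6% and 1.29% once each cell was thinned to 2000 UMIs. Cd27 was at 22.0 CPM against 5.29, a ratio of 4.16 (3.46 to 5.04). Sox4, a transcription factor of the SOX family, was at 185 CPM against 24.8, a ratio of 7.45 (6.85 to 8.11). The remaining factors kept the same direction. Erg, an ETS factor, was at 7.68 CPM against 1.66 and Hlf, a PAR bZIP factor of stem cells, at 6.42 CPM against 1.79. Meis1, the partner of HOX proteins, was at 15.5 CPM against 5.60, a ratio of 2.77 (2.31 to 3.34). Mecom was scarce, with 72 UMIs against 1, so its ratio of 18.1 carried an interval from 3.14 to 724. Of the 9 genes with at least 100 UMIs, 6 were at least 2-fold higher.

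**Figure D1:**
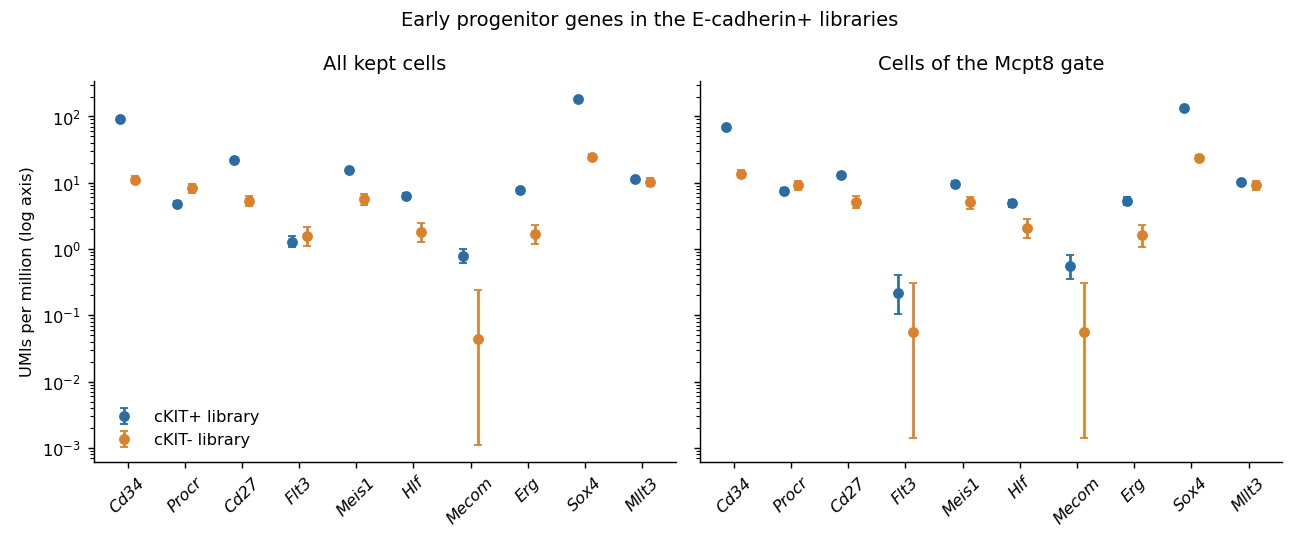
UMIs per 1000000 (log axis) of the 10 genes in the cKIT+ and cKIT- libraries, over all kept cells (left) and over the cells of the Mcpt8 gate (right), with exact 95% Poisson intervals. Cd34 at 90.1 against 11.2 and Sox4 at 185 against 24.8 lie far apart, while Procr, Flt3 and Mllt3 lie close together on the left.

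The other 3 genes did not share this pattern. Procr ran the other way, with 439 UMIs (4.82 CPM) in cKIT+ cells against 188 (8.22 CPM) in cKIT- cells, a ratio of 0.586 (0.493 to 0.699). Mllt3 was at 11.5 CPM against 10.4, a ratio of 1.11 whose interval, 0.959 to 1.28, includes 1. Flt3 had 118 UMIs against 36, a ratio of 0.823 (0.562 to 1.23). Its few UMIs lay mostly in cells that passed a marker rule for dendritic cell genes. Cells with at least 3 UMIs each of at least 2 of Siglech, H2-Aa, Cd74, Irf8 and Ly6d numbered 199 among cKIT+ and 265 among cKIT- cells, and held 56.8% and 91.7% of the Flt3 UMIs. Most of the 265 cKIT- cells also passed the B cell rule given below, so this rule does not tell dendritic from B cells. Without the cells of either rule, the Flt3 ratio was 3.75. Of the 10 genes, 8 were then at least 2-fold higher in the cKIT+ library, where 12.8% of 11360 genes were, and 0 at least 2-fold lower, where 8.86% were. The 8 include Flt3, which had lost most of its cKIT- UMIs with the cells left out, and Mecom, with 72 UMIs against 1 over all cells. Those shares require at least 100 UMIs over both groups, which Flt3 and Mecom did not have. Cells defined likewise by the B cell genes Cd79a, Cd79b, Ebf1, Vpreb1 and Igll1 held 119 of the 567 Sox4 UMIs of the cKIT- library, and the Sox4 ratio without both sets was 9.21. That comparison was added after the values were seen.

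The libraries differ in makeup, so they were compared again within the cells that had at least 3 UMIs of Mcpt8 and 5000 Mcpt8 UMIs per 1000000 UMIs of the cell, which encodes a protease of mouse basophils. This gate held 3064 cKIT+ and 2197 cKIT- cells, with medians of 14084 and 7736 UMIs. The gated cells still differed in makeup, with basophil markers at 43327.5 CPM in sum in cKIT+ and 86011 CPM in cKIT- cells. In cells with 20000 or more Mcpt8 UMIs per 1000000, Cd34 was at 46.7 CPM in the cKIT+ and 14.6 CPM in the cKIT- library. Sox4 was at 89.6 and 24.5 CPM there. Cd34 was at 70.2 CPM in the gated cKIT+ cells and 13.7 CPM in the gated cKIT- cells, a ratio of 5.11 (4.49 to 5.83), against 8.08 over all cells. Sox4 was at 135 CPM against 23.5, a ratio of 5.75 (5.21 to 6.36). The ratios of Erg (3.30), Cd27 (2.49) and Hlf (2.38) were also lower than over all cells, and that of Meis1 was 1.90 (1.51 to 2.41). Procr was at 7.57 CPM against 9.15, a ratio of 0.827 whose interval (0.685 to 1.00) reached no difference. Of the 10 genes, 7 were at least 2-fold higher in gated cKIT+ cells, Flt3 with 10 UMIs against 1 and Mecom with 25 against 1 among them, where 6.66% of 10394 genes were, and 0 were at least 2-fold lower, where 4.91% were. Those shares require at least 100 UMIs, and of the 8 genes that had them 5 were higher.

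The cKIT+ library was then divided by 4 lineage genes. A cell entered a gate with at least 3 UMIs and at least 5000 UMIs per 1000000 of Mcpt8, 1000 of Elane (neutrophil elastase, of granulocyte and monocyte progenitors), 500 of Gzmb (granzyme B) or 200 of Car1 (carbonic anhydrase of erythroid progenitors). The single-gate cells numbered 3064, 680, 264 and 56, and a further 2302 cells fell in no gate. Left out were 113 cells in more than 1 gate. Of the 96 cells past the Car1 cut, 38 also passed the Gzmb cut. Of the 340 cells past the Gzmb cut, 37 also passed the Mcpt8 cut. The Car1 and Gzmb gates thus compare what is left once the cells they share are taken out. Median UMIs were 14084, 23676, 8075.5 and 11963.5 in the gates and 9886.5 outside them. In the Gzmb gate, the mast cell protease Cma1 was at 470 CPM, Gata2 at 902 CPM and Prss34, a second basophil protease, at 115 CPM. The mast cell markers Tpsb2 and Tpsab1 were at 0 there. The Car1 gate held the erythroid markers at 4495 CPM in sum, of which the gate gene Car1 itself gave 2157 CPM.

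The Gzmb gate stood highest for most of the genes. Against all other cKIT+ cells, 7 of the 10 were at least 2-fold higher and 1 at least 2-fold lower, where 11.9% of 11214 genes were at least 2-fold higher and 11.3% at least 2-fold lower, and the median log2 ratio over all genes was 0.17. Meis1 had the highest ratio, with 289 UMIs in 264 cells (123 CPM) against 12.3 CPM elsewhere, a ratio of 10.1 (8.81 to 11.5). These cells, 4.07% of the library, held 20.5% of its Meis1 UMIs. Sox4 was at 715 CPM against 168 (ratio 4.26) and Cd27 at 85.4 CPM against 20.1 (ratio 4.25). Mllt3 followed at 2.92, Cd34 at 2.27 (198 CPM against 87.4) and Erg at 2.11. Mecom rested on 4 UMIs, a ratio of 2.25 (0.595 to 6.03). Of the 9 genes with at least 100 UMIs over both groups, 6 were at least 2-fold higher. Hlf was at 8.11 CPM against 6.40 (0.757 to 2.00 for the ratio) and Procr at 3.41 CPM against 4.88 (0.300 to 1.39 for the ratio), and both intervals included 1. Flt3 had 1 UMI, a ratio of 0.322 (0.00809 to 1.83). With TMM scaling, which moves every ratio down by one factor, 4 genes stayed at least 2-fold higher, Meis1 (8.35), Sox4 (3.53), Cd27 (3.52) and Mllt3 (2.42). The count was also 4 against the cells outside all gates alone, where 7.55% of 9855 genes were at least 2-fold higher and 9.94% at least 2-fold lower. The ratios of the 4 were 5.92, 2.56, 2.68 and 2.11. That comparison was added after the values were seen.

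**Figure D2:**
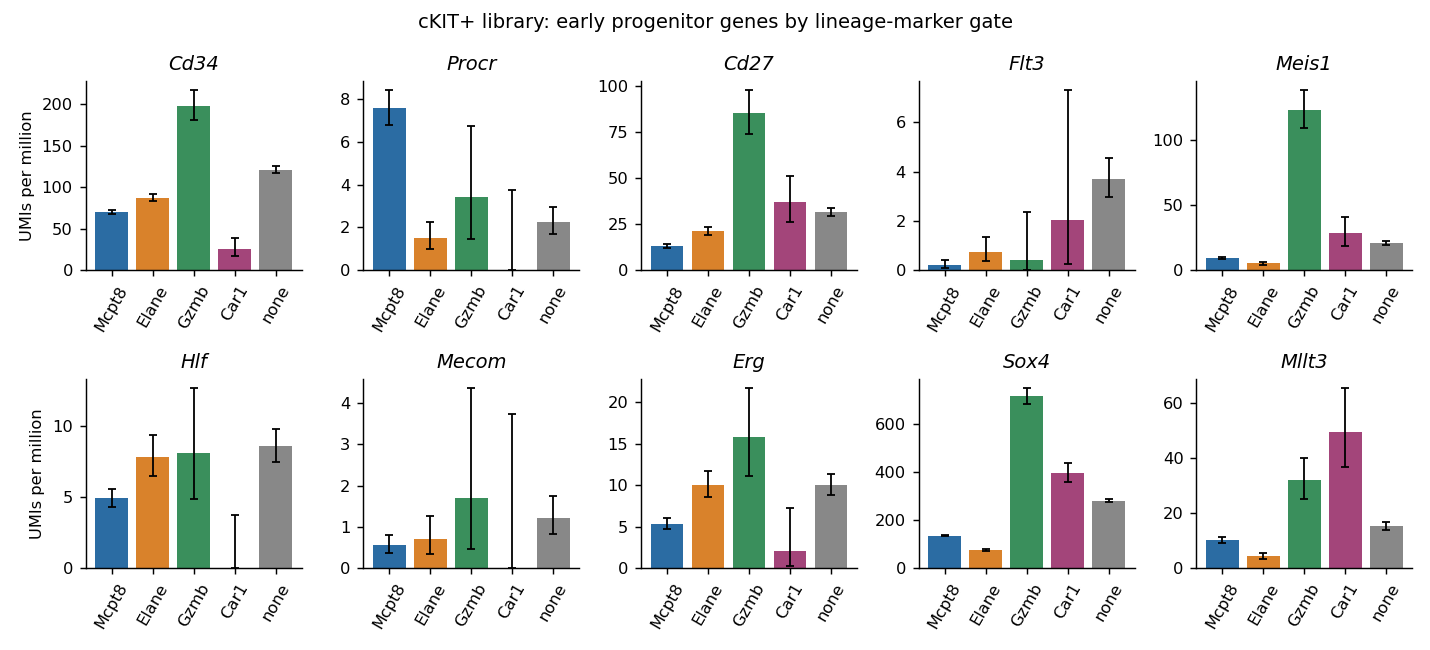
UMIs per 1000000 of each gene in the cKIT+ library by single-gate cells (Mcpt8, Elane, Gzmb, Car1) and cells in none of the gates. Bars are summed levels and lines their exact 95% Poisson intervals; Meis1, Sox4 and Cd27 are tallest in the Gzmb gate (123, 715 and 85.4), Procr in the Mcpt8 gate (7.57) and Mllt3 in the Car1 gate (49.5).

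Procr was the gene of the 10 that was higher in the Mcpt8 gate. It had 344 UMIs (7.57 CPM) in gated cells against 88 (2.01 CPM) in the remaining cells, giving a ratio of 3.76 (2.97 to 4.81), and the gate held 78.4% of the Procr UMIs of the library. No other gene of the 10 was at least 2-fold higher in this gate, where 3.56% of all genes were, and 3 were at least 2-fold lower, where 8.45% were. Those were Flt3 (0.0908), Cd27 (0.418) and Meis1 (0.458). Cd34 was at 70.2 CPM against 111 and Sox4 at 135 against 231, less than 2-fold apart. Procr was detected in 318 of 3064 gated cells and in no cell of the Car1 gate.

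The Elane gate held the granulocyte and monocyte progenitor markers at 33307 CPM in sum, of which the gate gene Elane itself gave 11919 CPM. Of the 10 genes, 0 were at least 2-fold higher there, where 4.2% of all genes were, and 4 were at least 2-fold lower, where 12.5% were. The 4 were Procr (0.274), Meis1 (0.317), Mllt3 (0.336) and Sox4 (0.362). Cd34 stood at 87.8 CPM against 90.9, a ratio of 0.966 (0.911 to 1.02), and Cd27 at 21.1 CPM against 21.9. Erg, at 10.0 CPM against 7.19 (1.16 to 1.67 for the ratio), and Hlf, at 7.81 against 6.16 (1.03 to 1.55), were slightly higher.

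The Car1 gate split the genes. Mllt3 was at 49.5 CPM against 11.1, a ratio of 4.46 (3.28 to 5.95), and Sox4 at 396 CPM against 180, a ratio of 2.20 (1.99 to 2.44). Of the 10 genes 2 were thus at least 2-fold higher, where 7.94% of all genes were, and 5 at least 2-fold lower, where 17.3% were. Of the 9 genes with at least 100 UMIs over both groups, 2 were higher and 4 lower. The Sox4 ratio was 1.95 with TMM scaling and 1.14 with all deposited cells, under 2-fold in both, while that of Mllt3 was 3.94 and 6.13. With cells of more than 1 gate kept, Meis1 (2.49) and Cd27 (2.18) also passed 2-fold. Cd34 was at 26.3 CPM against 91.1 (ratio 0.289) and Erg had 2 UMIs (ratio 0.261, 0.0315 to 0.945). Procr, Hlf and Mecom had 0 UMIs in the 56 cells, which allows up to 3.03 CPM. For Procr and Mecom (4.90 and 0.794 CPM in the other cells) that limit does not show a 2-fold difference. For Hlf (6.52 CPM in the other cells) the interval of the ratio reached 0.574, so a 2-fold difference is not shown either. Mllt3 was also at 69.7 CPM (25 UMIs) in 57 cKIT+ cells with at least 10000 UMIs per 1000000 of the haemoglobin gene Hba-a1. In those cells Cd34 was at 22.3 CPM (UMIs in 4 cells), Cd27 at 11.1 CPM (1 cell) and Sox4 at 69.7 CPM (6 cells). The other 6 genes had 0 UMIs, which allows up to 8.36 CPM. The same 57 cells had Mcpt8 at 4208 CPM (UMIs in 36 cells) and Prss34 at 4325 CPM (33 cells), and 8 had Car1. Hba-a1 thus does not mark them as erythroid cells alone.

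Cells with more Kit RNA had more of some of the genes. In the cKIT+ library 4428 cells had 0 Kit UMIs, 1225 had 1, 514 had 2 and 312 had 3 or more, with median depths of 12043.5, 14983, 18059.5 and 17911.5 UMIs, so the Kit count follows depth in part. Meis1 was at 12.7, 16.1, 20.8 and 31.1 CPM over the 4 steps. Hlf was at 5.42, 7.10, 7.68 and 11.5 CPM. Cd27 was at 16.7, 29.4, 28.6 and 36.0 CPM, and Cd34 at 75.6, 111, 112 and 119 CPM, so Cd34 and Cd27 differed mostly between 0 and 1 Kit UMI. Procr ran the other way, at 5.62, 4.33, 2.39 and 2.87 CPM. Between 3 or more and 0 Kit UMIs, Meis1 (ratio 2.45), Cd27 (2.15) and Hlf (2.12) were at least 2-fold higher, 3 of the 10, where 2.34% of 10765 genes were, and 0 were at least 2-fold lower, where 4.33% were. Meis1 alone stayed past 2-fold with all deposited cells (2.10) and with TMM scaling (2.23), where Cd27 was at 1.95 and 1.96 and Hlf at 1.91 and 1.93. Over the same steps Gzmb was at 33.7, 107, 182 and 407 CPM, Elane at 1051, 2772, 5044 and 6357 CPM and Mcpt8 at 14441, 7907, 3772 and 2063 CPM, so the steps also differ in lineage. The median log2 ratio was 0.56 for the 10 genes and 0.10 for all genes. Sox4 had a ratio of 1.71 and Cd34 1.58, both with intervals above 1, while the intervals of Mllt3 (0.697 to 1.21), Flt3 and Mecom included 1.

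**Figure D3:**
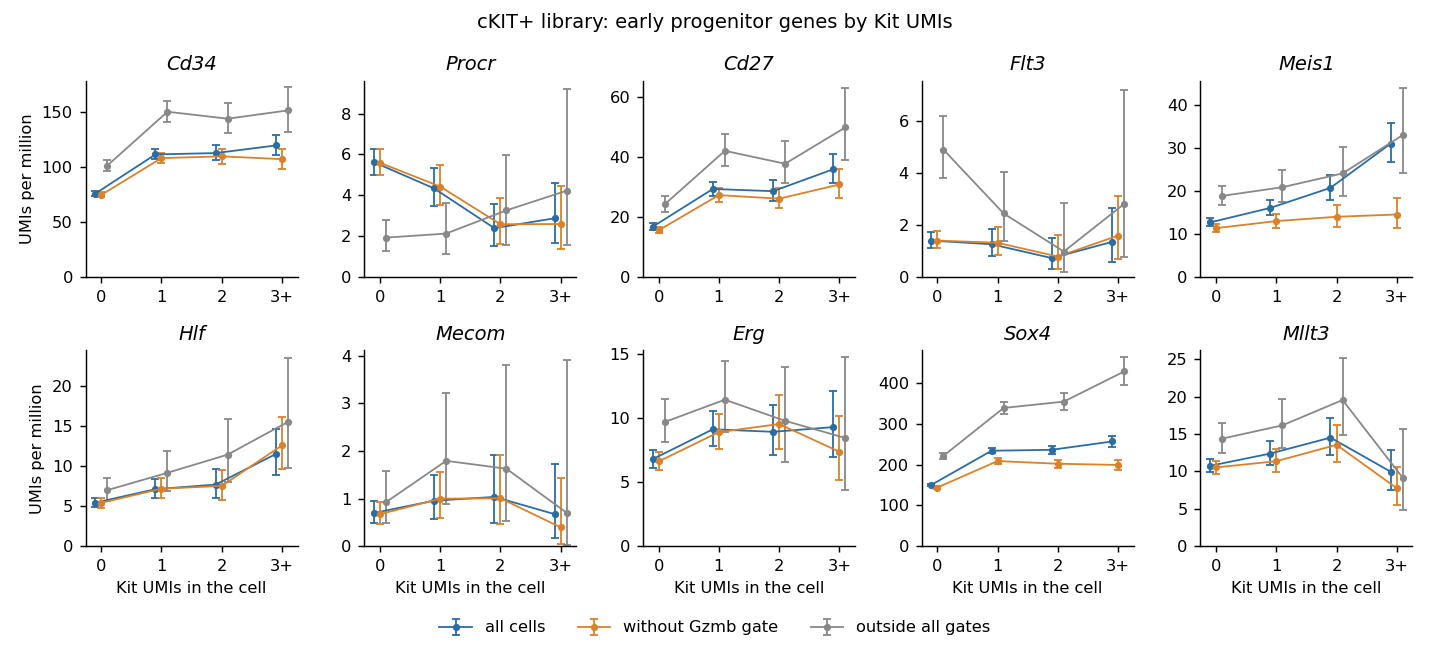
UMIs per 1000000 of each gene by the Kit UMIs of the cell in the cKIT+ library, with exact 95% Poisson intervals. Lines are for all cells, without the Gzmb gate (leaving out every cell past its cut) and outside all 4 gates. The Meis1 line goes from 12.7 to 31.1 over all cells and from 11.4 to 14.5 without the Gzmb gate, and the Hlf line from 5.42 to 11.5 and from 5.41 to 12.5.

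For Meis1 the difference was much smaller without the Gzmb gate. Kit was highest in that gate, at 198 CPM, and 199 of its 264 cells had a Kit UMI. For this comparison all 340 cells past the Gzmb cut were left out, those past a second cut included. Without them, Meis1 was at 14.5 CPM in the 223 cells with 3 or more Kit UMIs and 11.4 CPM in cells with 0, a ratio of 1.28 (0.990 to 1.63). Hlf, at 12.5 CPM against 5.41, kept a ratio of 2.32 (1.74 to 3.05) and was then the 1 gene of the 10 at least 2-fold higher, where 2.5% of genes were. Cd27 had a ratio of 1.99. Procr, at 0.463 (0.244 to 0.804), was the 1 gene at least 2-fold lower, where 6.58% were. Outside all gates, in 85 cells against 1589 with medians of 15679 and 7590 UMIs, 3 of the 10 genes were at least 2-fold higher, where 0.798% of 8773 genes were, and 0 at least 2-fold lower, where 6.5% were. The 3 were Hlf (2.22), Cd27 (2.06) and Procr, which had 6 UMIs against 27 (2.20, 0.741 to 5.43). Of the 7 genes with at least 100 UMIs, as those shares require, 2 were higher and 0 lower. Sox4 had a ratio of 1.93 and Meis1 of 1.75.

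Within single gates, cells with at least 1 Kit UMI were set against cells with 0. In the Mcpt8 gate the 601 cells with a Kit UMI had 93.4 CPM of Cd34 and the 2463 without had 63.2 CPM, a ratio of 1.48 (1.37 to 1.59), and Sox4 had a ratio of 1.45 (1.37 to 1.53). In the Elane gate Cd34 was at 1.08 (0.962 to 1.21) and in the Gzmb gate at 1.05 (0.842 to 1.33). Meis1 was at 120 CPM in Gzmb-gated cells with a Kit UMI and 134 CPM in those with none, a ratio of 0.897 (0.683 to 1.19). Outside the gates the ratios were 1.47 for Cd34, 1.73 for Cd27, 1.61 for Sox4 and 1.53 for Hlf, all with intervals above 1.

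Mcpt8 gave a second axis through both libraries. Cells were divided at 500, 5000 and 20000 Mcpt8 UMIs per 1000000 into 4 steps. In the cKIT+ library Procr was at 1.56, 3.15, 6.01 and 8.96 CPM, higher at each step. Cd34 was highest in the second step, at 97.5, 146, 93.9 and 46.7 CPM, and so were Meis1 (20.1, 24.6, 12.1 and 7.84 CPM) and Sox4 (233, 247, 180 and 89.6 CPM). Cd27 was lower at each step, at 32.4, 28.3, 17.1 and 9.40 CPM. Of the 10 genes, 1 was at least 2-fold higher and 7 at least 2-fold lower in the last step than in the second, where 2.82% and 4.32% of 9767 genes were. The 7 include Flt3 with 1 UMI against 3 and Mecom with 6 against 19. Of the 8 genes with at least 100 UMIs, as the shares require, 1 was higher and 5 lower.

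In the cKIT- library, Cd34 and Sox4 took another course. Cd34 had 4, 2, 24 and 225 UMIs over the 4 steps (2.01, 0.719, 8.80 and 14.6 CPM), and its ratio of the last to the second step was 20.4 (5.57 to 169), against 0.319 (0.296 to 0.344) in the cKIT+ library. Sox4 was at 63.8, 6.11, 17.2 and 24.5 CPM. The first step of that library also held the dendritic cell markers at 9680 CPM and the B cell markers at 2932 CPM in sum. Of its 545 cells, 242 were dendritic cell marker cells, and most of these were also B cell marker cells. Of its 127 Sox4 UMIs, 113 lay in its 212 B cell marker cells and 5 in the 289 cells with neither set of markers, where Sox4 was at 4.72 CPM. Median depth was 3010 UMIs in the second step and 9306 in the last. The second step differed in makeup between the libraries. Its granulocyte and monocyte progenitor markers summed to 7450 CPM in the cKIT+ and 223 CPM in the cKIT- library, and its basophil markers to 3461 and 4639 CPM. Meis1 and Mllt3 were lower in the last step than in the second in both libraries, with ratios of 0.494 and 0.472 in the cKIT- library and 0.318 and 0.525 in the cKIT+ library. Of the 10 genes, 4 were at least 2-fold higher and 3 at least 2-fold lower in the last step of the cKIT- library, where 15.9% and 9.79% of 8536 genes were, counting Flt3 and Mecom at 1 UMI against 0, which measures no difference. Meis1 (71 and 26 UMIs) and Erg (22 and 9), counted as lower, were in sum under the 100 UMIs that the share over all genes requires, and of the 4 genes above it 2 were higher and 1 lower.

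**Figure D4:**
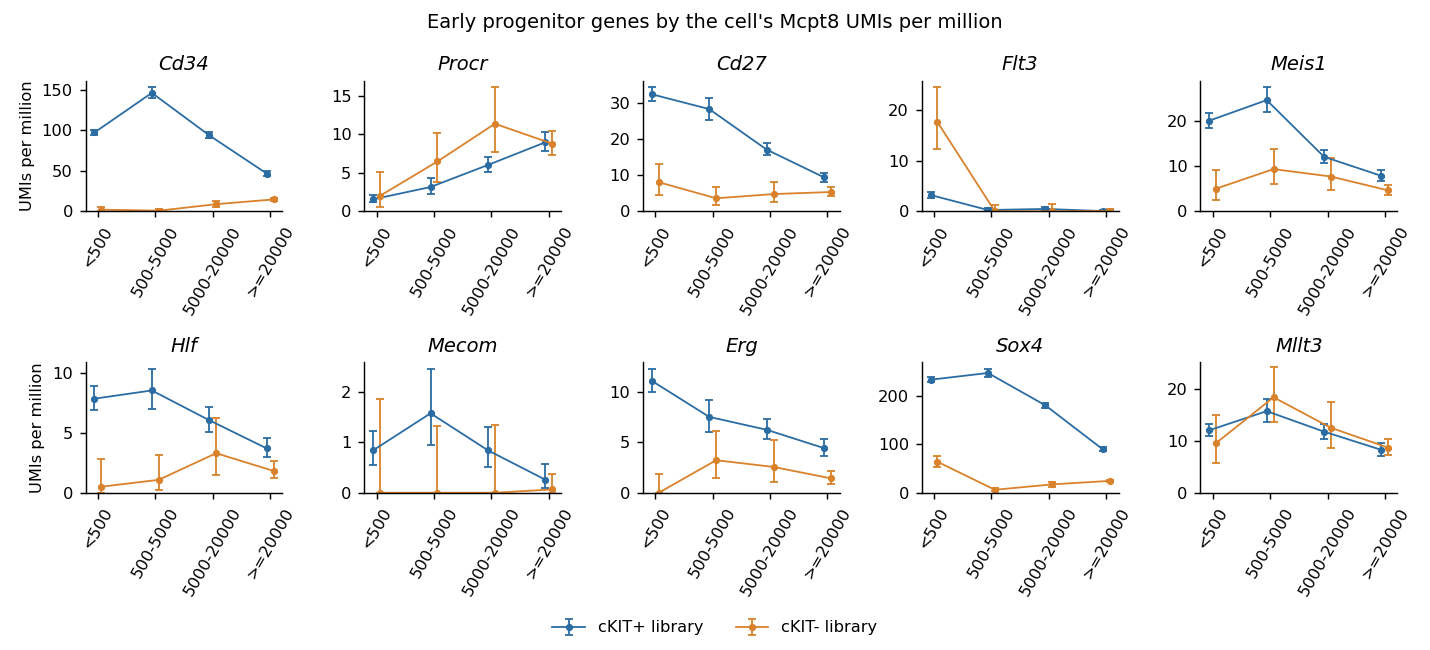
UMIs per 1000000 of each gene by the Mcpt8 UMIs per 1000000 of the cell, in both libraries, with exact 95% Poisson intervals. The cKIT+ and cKIT- lines of Cd34 run from 146 down to 46.7 and from 0.719 up to 14.6 between the second and the last step, and the lines of Procr end at 8.96 and 8.78.

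The genes were also counted cell by cell, after drawing 2000 UMIs from each cell so that depth was equal, which left out 345 cKIT+ and 176 cKIT- cells. At least 1 of the 10 genes was seen in 2609 of 6134 cKIT+ cells (42.5%) and in 363 of 3486 cKIT- cells (10.4%). Without thinning, 1306 of 6479 cKIT+ and 2666 of 3662 cKIT- cells had none of the 10. After thinning, at least 3 were seen in 136 cKIT+ cells (2.22%, 1.86 to 2.62) and in 1 cKIT- cell. Over 20 draws the cKIT+ number ran from 102 to 156 with a median of 119, so the share depends on the draw. Cells of the Gzmb gate reached 3 or more genes most often, 47 of 261 (18.0%) in the first draw. Over the draws the Gzmb share had a median of 14.2% (11.5% to 19.5%). The median share over the draws was 3.57% in the 56 cells of the Car1 gate (0 to 10.7%), 2.61% outside the gates, 0.742% in the Elane gate (0.445% to 1.78%) and 0.630% in the Mcpt8 gate. Among the Hba-a1 cells, whose median depth was 4747 UMIs, 8 of 49 had at least 1 gene and 0 had 3, which allows a share of up to 6.12%.

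**Figure D5:**
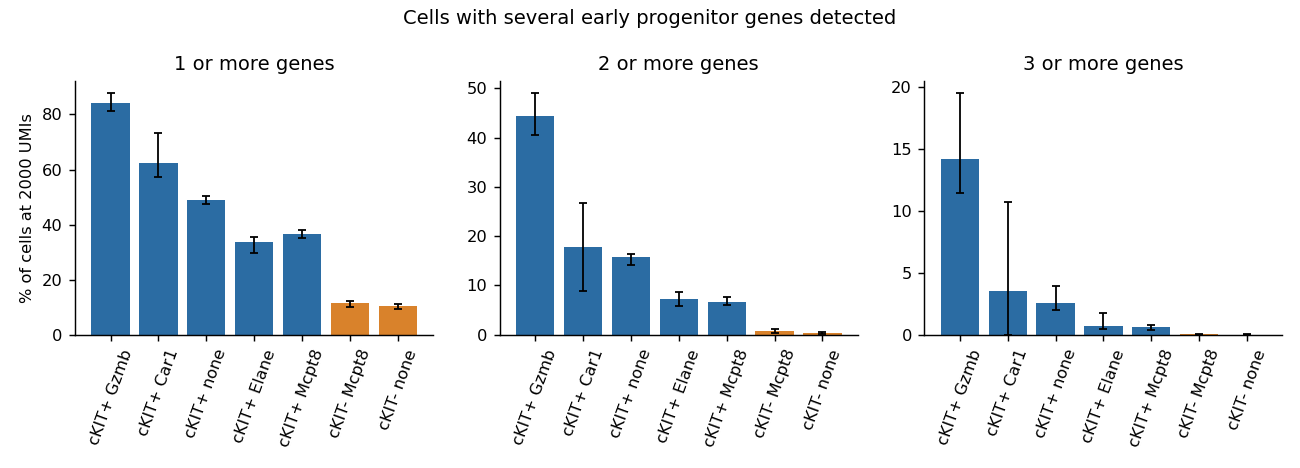
Percent of cells with at least 1, 2 or 3 of the 10 genes at 2000 UMIs per cell, by gate and library. Bars are the median and lines the range over 20 draws of the UMIs; for 3 or more genes the Gzmb gate of the cKIT+ library has a median of 14.2% and every other group shown a median under 4%.

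The stem cell genes Hlf, Mecom and Procr were each seen in a minority of cells. At full depth Hlf had a UMI in 490 cKIT+ cells, Procr in 410 and Mecom in 65. Hlf and Procr shared 35 cells, 23 of them in the Mcpt8 gate, Hlf and Mecom shared 10, 5 of them outside the gates, and Mecom and Procr shared 5. All 3 were seen in 1 of 6479 cKIT+ cells and in 0 of 3662 cKIT- cells, which allows up to 0.0819% of cells with UMIs of all 3. The cKIT+ cell had 33807 UMIs and lay in the Mcpt8 gate. Hlf, Meis1 and Cd34 were seen together in 86 cKIT+ cells, 41 of them outside the gates, and in 0 cKIT- cells. The cKIT+ cells with Hlf, Procr and Mecom had medians of 17700, 15629.5 and 17012 UMIs, against 13039 over the library. The number of shared cells that unrelated detection would give was not computed, so these overlaps do not show joint expression.

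Across 10 groups of cells made by library, gate and Kit, Cd34 and Hlf had the highest correlation among the 28 pairs of the 8 genes with at least 500 UMIs, Flt3 and Mecom being left out (Pearson r = 0.959 over 10 groups, on a log scale), followed by Cd27 and Sox4 (0.941) and Cd27 and Erg (0.928). Procr and Cd34 had r = -0.285. The groups share libraries and differ in depth, so these values are descriptions. Among all genes with at least 500 UMIs, the ones most like Cd34 were Hoxa9 (0.996), Smo and Hmgn1, those most like Meis1 were Atat1 (0.987), Sytl4 and Tia1, and those most like Procr were Ate1 (0.937), Rtn4r and Rhno1.

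A list of 41 other genes of early haematopoiesis was set beside them, of which 32 had enough UMIs. In the cKIT+ library 9 of the 32 were at least 2-fold higher and 5 at least 2-fold lower, beside 11.8% and 9.34% of all genes. The median log2 ratio of the list was -0.16 against 0.02 for all genes, so the list as a whole was not higher there. The higher ones included the homeobox genes Hoxa7 (6.32) and Hoxa9 (4.69), the progenitor factor Myb (4.27), the chromatin protein Hmga2 (3.87) and the endothelial and stem cell receptor Eng (2.89). The lower ones were the tetraspanin Cd9 (0.252), Satb1 (0.368), Thy1 (0.378), Cd48 (0.428) and Gata2 (0.438). In the Gzmb gate 8 were higher and 6 lower, beside 11.9% and 11.3% of all genes, and the median log2 ratio of the list was 0.19 against 0.17 for all genes. They included Angpt1 (3.84), the bHLH factor Tal1 (3.48) and Ikzf1 (2.90) on the higher side and Lmo2 (0.296), Gfi1 (0.321) and Eng (0.352) on the lower. In the Elane gate 3 were higher, Gfi1 (11.8), Lyl1 (2.64) and Cd93 (2.14), and 15 lower, Gata2 (0.0417) among them, beside 4.2% and 12.5% of all genes. In the Car1 gate 3 were higher, Gfi1b (4.35), Tal1 (3.10) and Eng (2.59), and 11 lower, beside 7.94% and 17.3%. In the Mcpt8 gate 5 were higher, led by Thy1 (17.0) and Gata2 (2.73), and 3 lower, Ly6a (0.0934), Gfi1 (0.154) and Ctla2a (0.345), beside 3.56% and 8.45%. Between 3 or more and 0 Kit UMIs, Gfi1 (3.87) was the 1 gene at least 2-fold higher, and Thy1 (0.314) and Cd9 (0.447) were at least 2-fold lower, beside 2.34% and 4.33%.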

How the data were processed

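The authors aligned the reads of each library to mm10 with Cell Ranger 3.0.2 and deposited the resulting UMI counts as raw whole numbers. The labels name version 2 of the 10x kit and the methods version 3. The study's cell filter was applied per library (genes in at least 40 cells; cells outside the upper and lower 1% of genes and the upper 1% of UMIs), keeping 6479 of 6632 cKIT+ and 3662 of 3745 cKIT- cells. Doublets were not removed. Scrublet (Scanpy 1.11.5) marked 292 cKIT+ and 3 cKIT- cells, and its highest scores were left out as an alternative at 0.8% per 1000 cells.

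Counts were summed over cells and scaled to 1000000 (CPM). Cells were thinned to 2000 UMIs without replacement for shares of cells. Ratios of at least 2 or their inverse were counted. The 2-fold call was also run on counts simulated with Poisson error at the totals of the 2 libraries. That run covers counting error at those totals alone, not the smaller gates or differences in makeup. For zeros, 3 counts give the limit. Pearson r used log2 of CPM plus 1. edgeR 4.0.16 in R 4.3.3 served TMM scaling alone, and numpy 2.4.6 and scipy 1.17.1 in Python 3.11.15 the rest. GENCODE M21 (GRCm38) held 31011 of the 31053 gene identifiers.

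The 10 genes, gates, marker lists and the list of 41 early genes were chosen with earlier results of these data known. Named genes are the 10, Kit, the gate genes, listed early genes at least 2-fold apart, markers beside results they touch and the 3 most alike genes. Background counts used genes with at least 100 UMIs over both groups. Alternatives covered the cell filter, doublets, depth, scaling, cell weights, low counts, gate cuts and Kit classes.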

Additional observations from a re-analysis of the deposited data

Results flagged for a closer look

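Cd34 and Sox4 moved in opposite directions with Mcpt8 in the 2 libraries. Between cells with 500 to 5000 and cells with 20000 or more Mcpt8 UMIs per 1000000, the ratio of Cd34 was 0.319 in the cKIT+ and 20.4 in the cKIT- library, and that of Sox4 was 0.363 and 4.0. The intervals of all 4 ratios excluded 1. With 1 library each, the difference between the libraries was not tested, and the second step of the cKIT- library held 2 Cd34 and 17 Sox4 UMIs. That step also held different cells in the 2 libraries, with granulocyte and monocyte progenitor markers at 7450 CPM in cKIT+ and 223 CPM in cKIT- cells.

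Some genes also moved in opposite directions with Kit in different gates of the cKIT+ library, for cells with at least 1 against 0 Kit UMIs. Cd27 had ratios of 1.37 in the Mcpt8 gate, 1.46 in the Elane gate, 2.34 in the Car1 gate and 1.73 outside the gates, against 0.715 (0.524 to 0.988) in the Gzmb gate. The Cd27 ratio in the Car1 gate rested on 28 against 9 UMIs. Erg had 1.40 in the Mcpt8 gate and 0.429 (0.212 to 0.888) in the Gzmb gate, the latter from 22 against 15 UMIs. Flt3 had 5.02 in the Mcpt8 gate, from 6 against 4 UMIs, and 0.422 outside the gates, from 22 against 69. The cells outside the gates also held the dendritic cell markers at 1392 CPM in sum. The differences between gates were not tested.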

How the results depend on the processing

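The counts of genes at least 2-fold higher were recomputed under the cell filter, doublet, depth, scaling and gate alternatives. The library count stayed between 6 and 8 of 10, the Mcpt8 gate count at 1 and the Elane gate count at 0. The Kit count of 3 was the least stable. It was 1 with all deposited cells, 1 with TMM scaling, 1 without the Gzmb gate and 5 with each cell thinned to 2000 UMIs, the Kit classes being those of the full counts. With Kit itself counted after thinning, the count was 4, in 55 cells with 2 or more Kit UMIs against 5716 with 0. Both thinned values rest on a single draw. The Gzmb gate count of 7 was 4 with TMM scaling and 4 against cells outside all gates, and the Car1 gate count of 2 was 1 with all deposited cells, 1 with TMM scaling and 4 with cells of 2 gates kept. Apart from the fewer cells or single scaling factor that define an alternative, the cause was not tested. The share of cKIT+ cells with 3 or more genes, 2.22%, was 1.67% with all deposited cells, 0.537% at 1000 UMIs, 11.6% for 2 or more genes and 0.359% for 4 or more. The UMIs were drawn anew for all deposited cells. Over 20 draws of the kept cells alone the share ran from 1.66% to 2.54%, so the 1.67% shows no effect of the cell filter. Mecom, with 4 UMIs in the Gzmb gate and 0 in the Car1 gate, changed direction there, its ratio in the Gzmb gate being 0 after thinning and 0.993 with the cut halved, and in the Car1 gate 1.36 with the cut doubled. Of 592 single gene ratios under the alternatives, 480 lay within the interval of the reported value, 109 outside it, and 3 were these. The 480 include an alternative that kept only genes with at least 100 UMIs. Its ratios repeat the reported ones and could not fall outside, so the tally overstates how stable the ratios were. After thinning, Mecom had no UMI in the cKIT- library and gave no ratio there. No paired analysis was possible because each population has 1 library. Depth limits Mecom in every comparison, Flt3 in most, and genes with few or no UMIs in the 56 cells of the Car1 gate.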

Other observations

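At full depth 11 cKIT+ cells had UMIs of at least 7 of the 10 genes, and 6 of these fell in no gate. In the cKIT- library the most was 4 genes, in 11 cells. A cell outside the gates with 8217 UMIs had 8 of the genes, with 4 UMIs of Hlf, 3 of Cd34 and 1 of Mecom, and it had 0 UMIs of Kit, Elane, Gzmb and Prss34, 1 of Mcpt8 and 2 of Gata2. A second, with 5283 UMIs, had 7 of the genes, with 7 UMIs of Hlf, 3 of Mecom and 4 of Cd34, 1 UMI of Kit and 0 of Mcpt8 and Gata2. It held the highest Mecom count of the library. The highest Hlf count, 11 UMIs, lay in a cell of 13999 UMIs outside the gates with 0 Kit UMIs and 3 Mcpt8 UMIs. These cells were picked out after their values were seen and carry no test.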
